A study of Mus musculus with 3 samples.

Results

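The 10 genes described here, Trem2, Cd36, Spp1, Apoe, Lgals3, Plin2, Fabp5, Lpl, Gpnmb and Cd9, form a signature commonly called lipid-associated macrophage genes. They were taken by symbol from the 19070 probed genes of the assay, and each symbol had 1 feature. Their unique molecular identifiers (UMIs, counted transcripts) were summed by cell class and library in 3 single-cell libraries of mouse skin wounds. All mice were female C57BL/6J at postnatal day 50, with a full-thickness, splinted wound of 5 mm in the back skin. On day 5 the wound and 2 mm of skin around it were collected. One library came from an untreated wound, titled Sham by the submitters, and 1 from a wound covered with 20 µL of gelatin methacryloyl (GelMA), a light-cured hydrogel set under ultraviolet light for 1 min. The remaining library came from a wound under GelMA that carried apoptotic neutrophils (AN-GelMA). Its deposited files are named for heat, a word the labels do not explain. The 3 comparisons ask how the gel and its neutrophil load bear on wound cells, with 1 library a group and an unstated number of mice in each, so animal, piece of skin and treatment cannot be told apart.

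Macrophages that engulf dying cells take up membrane lipid, digest it in lysosomes, and then export it or store it in droplets. Trem2 is a surface receptor for lipids and apoptotic cells whose signalling is tied to a macrophage state carrying Spp1, Gpnmb, Lpl, Fabp5, Cd9 and Lgals3, known from fat, atherosclerotic plaque, scarring liver and wounds. Outside macrophages the same genes serve melanocytes (Gpnmb), sebaceous glands and epidermis (Plin2, Fabp5, Apoe), fat cells (Lpl, Cd36) and capillary endothelium (Cd36).

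The promoters of the 4 genes that separate the macrophage subsets and libraries most clearly, or that mark the pathway's receptor and droplets, are shown first. Their pooled levels were highest in the same macrophage subset, described further on, as were those of most of the 10 genes. For Trem2 the interval there overlapped that of another subset. RefSeq windows on GRCm38.p6, a different build from that of the counts, were found for 8 of the 10 genes. The stretch from 180 bases before to 30 bases after the first listed start is printed, with every match to one of 7 searched motifs in capitals.
Spp1: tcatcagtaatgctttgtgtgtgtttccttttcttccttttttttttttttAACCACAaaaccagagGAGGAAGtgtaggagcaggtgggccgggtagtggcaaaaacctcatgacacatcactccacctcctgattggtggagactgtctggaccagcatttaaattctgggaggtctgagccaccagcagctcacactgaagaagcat
Gpnmb: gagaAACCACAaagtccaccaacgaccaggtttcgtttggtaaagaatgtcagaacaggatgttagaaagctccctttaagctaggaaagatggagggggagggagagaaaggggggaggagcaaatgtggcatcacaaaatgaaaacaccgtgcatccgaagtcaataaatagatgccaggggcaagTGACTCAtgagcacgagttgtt
Trem2: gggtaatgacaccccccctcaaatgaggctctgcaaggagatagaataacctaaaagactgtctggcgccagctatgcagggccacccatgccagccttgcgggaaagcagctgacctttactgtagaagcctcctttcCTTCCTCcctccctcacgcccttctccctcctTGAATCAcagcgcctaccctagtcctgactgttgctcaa
Plin2: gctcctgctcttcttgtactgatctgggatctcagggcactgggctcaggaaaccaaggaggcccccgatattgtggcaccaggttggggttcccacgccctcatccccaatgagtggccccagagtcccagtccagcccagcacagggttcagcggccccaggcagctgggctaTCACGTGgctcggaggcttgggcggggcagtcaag
The windows lie at chr5:104434931-104435140 on the plus strand for Spp1, chr6:49036338-49036547 on the plus strand for Gpnmb, chr17:48346221-48346430 on the plus strand for Trem2 and chr4:86670030-86670239 on the minus strand for Plin2. Both strands were searched over 300 bases in 32851 RefSeq windows. The AP-1 motif TGANTCA, present in 7.81% of all windows, matched once in Gpnmb (9 bases after the start) and once in Trem2 (9 bases before it). A RUNX motif, AACCACA, present in 5.27% of windows, matched in Gpnmb and Spp1. The PU.1-type motif GAGGAAG, present in 13.6%, matched in Spp1 and on the other strand in Trem2. Plin2 held a palindromic E-box, CACGTG (7.15% of windows), 4 bases before its start, which overlaps the M-box form TCANGTG (14.3%) and the hypoxia core ACGTG (19.6%). The PPAR repeat motif, present in 0.0396% of windows, matched in none of the 8 genes. Lgals3 held 1 M-box match, 224 bases before its start. Matched letters describe the sequence and show no binding.

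The libraries held 6073 to 11449 barcodes and 8945496 to 21613482 UMIs, with median depths of 1125 to 1485 UMIs per barcode, and 94 to 135 barcodes were shared between any pair of libraries. Cells were grouped without using the 10 genes and named from marker sets. The macrophage class numbered 655, 396 and 1539 cells (in the order untreated, GelMA, AN-GelMA, used throughout), and all 14 macrophage markers reached 50 CPM (counts per 1e6, a gene's UMIs over all UMIs of the class) in it. Its summed UMIs were 754603, 355189 and 1596611, so a single UMI stood for 1.33, 2.82 and 0.626 CPM. Levels are CPM of a class's summed UMIs with 95% Poisson intervals. Ratios are log2 ratios of CPM with exact 95% intervals, and a gene is called past a ratio of 1.5 either way. Intervals cover counting error within these libraries only, and with 1 library a group no test of treatment is possible. Flex probes differ in number and efficiency between genes, so levels are compared within a gene and not between genes.

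In macrophages, 8 of the 10 genes were lower in the GelMA library than in the untreated one, and 7 were higher in the AN-GelMA library than in the GelMA one. Gpnmb and Spp1 showed the widest gaps. Apoe went the other way, being lowest in the untreated library, and Fabp5 intervals overlapped in all 3 before an estimated background was taken off. Between AN-GelMA and untreated macrophages only Gpnmb differed past a ratio of 1.5.

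**Figure D1:**
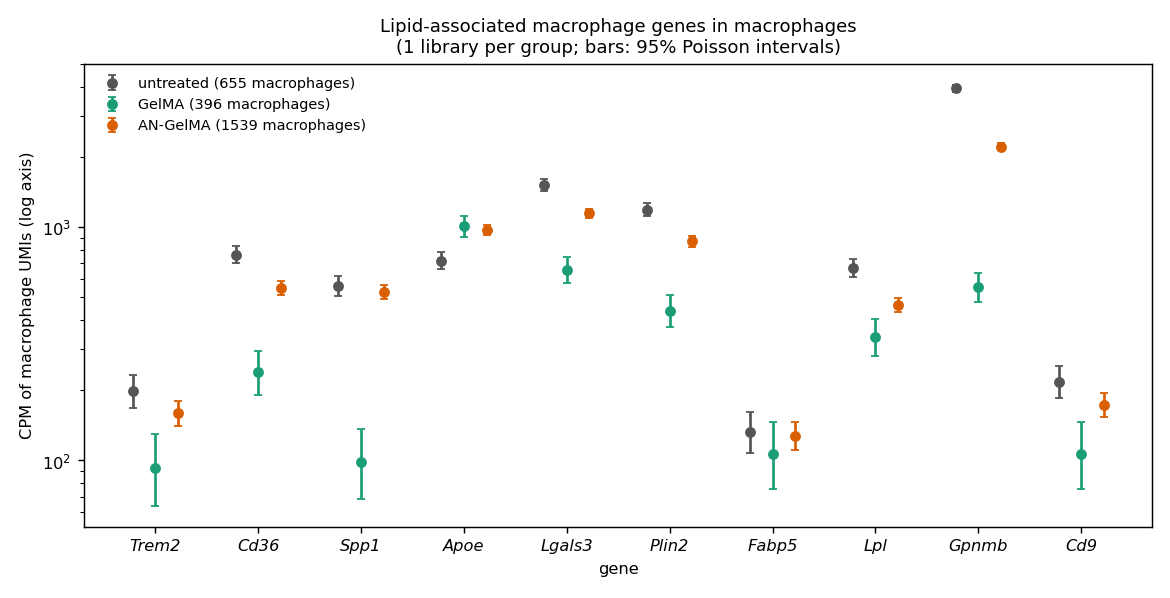
Level of each gene in macrophages as CPM on a log axis, 1 point per library (grey untreated, green GelMA, orange AN-GelMA), with 95% Poisson intervals as bars. The green point is the lowest of the 3 for every gene but Apoe, for which the grey point, at 718 CPM, is lowest.

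Of the receptors, Trem2 (ENSMUSG00000023992), which binds lipids and apoptotic cells, was at 199 CPM (168 to 233) in untreated, 92.9 CPM (64 to 130) in GelMA and 159 CPM (140 to 180) in AN-GelMA macrophages, from 150, 33 and 254 UMIs. The GelMA interval lay below the other 2. Among other classes of at least 50 cells the highest Trem2 level was 24.8 CPM from 3 UMIs in GelMA neutrophils, whose interval overlapped that of GelMA macrophages. The 44 untreated neutrophils held 6 Trem2 UMIs, or 133 CPM (48.8 to 289.6). Over all libraries, neutrophils had 6 of the 14 macrophage markers at 50 CPM, with a sum of 2232 CPM, against 6443 CPM in macrophages. Whether macrophages were mixed into the neutrophil class was not tested. Macrophages held 81.5%, 50.0% and 88.2% of each library's Trem2 UMIs. Cd36 (ENSMUSG00000002944), a scavenger receptor and fatty acid transporter, was at 763 CPM (702 to 828) in untreated, 239 CPM (191 to 296) in GelMA and 549 CPM (514 to 587) in AN-GelMA macrophages. All 3 intervals were apart, with untreated highest. Adipocytes held Cd36 at 1143, 1238 and 637 CPM from 26, 71 and 23 cells, clear of the macrophage interval in GelMA and overlapping it in the other libraries. Endothelial cells (466, 706 and 396 CPM) and sebocytes (373, 558 and 428 CPM) also lay above macrophages in GelMA.

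Of the secreted proteins, Spp1 (ENSMUSG00000029304), or osteopontin, a ligand of integrins and CD44, was at 559 CPM (507 to 615) in untreated, 98.5 CPM (68.6 to 137) in GelMA and 529 CPM (494 to 566) in AN-GelMA macrophages. The untreated and AN-GelMA intervals overlapped, and GelMA, with 35 UMIs, stood well below both. Apoe (ENSMUSG00000002985), which carries cholesterol out of cells, was at 718 CPM (659 to 781) in untreated, 1008 CPM (906 to 1118) in GelMA and 974 CPM (926 to 1024) in AN-GelMA macrophages. Here the gel libraries overlapped each other and lay above the untreated one. Sebocytes held the most Apoe in every library (1217, 1256 and 1156 CPM). Lgals3 (ENSMUSG00000050335), a galectin that binds surface glycans and damaged lysosomes, was at 1520.0 CPM (1433 to 1611) in untreated, 656 CPM (574 to 746) in GelMA and 1149 CPM (1097 to 1202) in AN-GelMA macrophages. Macrophages ranked first for Lgals3 in every library, although in GelMA their interval overlapped that of melanocytes at 513 CPM.

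Of the genes that handle lipid, Plin2 (ENSMUSG00000028494), which coats lipid droplets, was at 1189 CPM (1112 to 1269) in untreated, 439 CPM (373 to 514) in GelMA and 869 CPM (824 to 916) in AN-GelMA macrophages. The 3 intervals did not overlap. Sebocytes, which make sebum, held Plin2 at 1624, 1781 and 1640 CPM and so above macrophages in each library. Fabp5 (ENSMUSG00000027533), a fatty acid chaperone of the cytosol, was at 133 CPM (108 to 161) in untreated, 107 CPM (75.7 to 147) in GelMA and 128 CPM (111 to 147) in AN-GelMA macrophages, with all intervals overlapping. With a background share of the level over all cells, macrophages included, taken off, it was 107, 56.3 and 91.4 CPM. The share was 8.17%, 14.6% and 9.64%, the median level of other classes' markers in macrophages relative to all cells. Log2 ratios of -0.93 for GelMA over untreated and 0.70 for AN-GelMA over GelMA then passed 1.5-fold. Its level in sebocytes was 1392, 1546 and 1489 CPM and in keratinocytes 452, 455 and 554 CPM, and macrophages held 3.83%, 0.548% and 4.11% of each library's Fabp5 UMIs. Lpl (ENSMUSG00000015568), the lipase that frees fatty acids from lipoproteins, was at 667 CPM (610 to 727) in untreated, 338 CPM (280 to 404) in GelMA and 464 CPM (431 to 499) in AN-GelMA macrophages. These intervals were apart too. Adipocytes held 2329, 2560 and 2053 CPM of Lpl.

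Of the membrane glycoproteins, Gpnmb (ENSMUSG00000029816), a protein of melanosomes and lysosomes, was at 3935 CPM (3794 to 4079) in untreated, 555 CPM (480 to 638) in GelMA and 2213 CPM (2141 to 2288) in AN-GelMA macrophages, from 2969, 197 and 3534 UMIs. No intervals overlapped and untreated was highest. Melanocytes, in which Gpnmb is a known pigment cell gene, held 3168, 3339 and 2877 CPM from 26, 84 and 32 cells, with overlapping intervals. Macrophages held 83.8%, 2.56% and 83.9% of each library's Gpnmb UMIs, so in GelMA nearly all of them lay in other cells. Cd9 (ENSMUSG00000030342), a tetraspanin of membranes and vesicles, was at 217 CPM (185 to 253) in untreated, 107 CPM (75.7 to 147) in GelMA and 173 CPM (154 to 195) in AN-GelMA macrophages. The GelMA interval lay below the other 2, which overlapped. Neutrophils held more Cd9, at 776, 909 and 642 CPM, from 44, 93 and 103 cells.

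**Figure D2:**
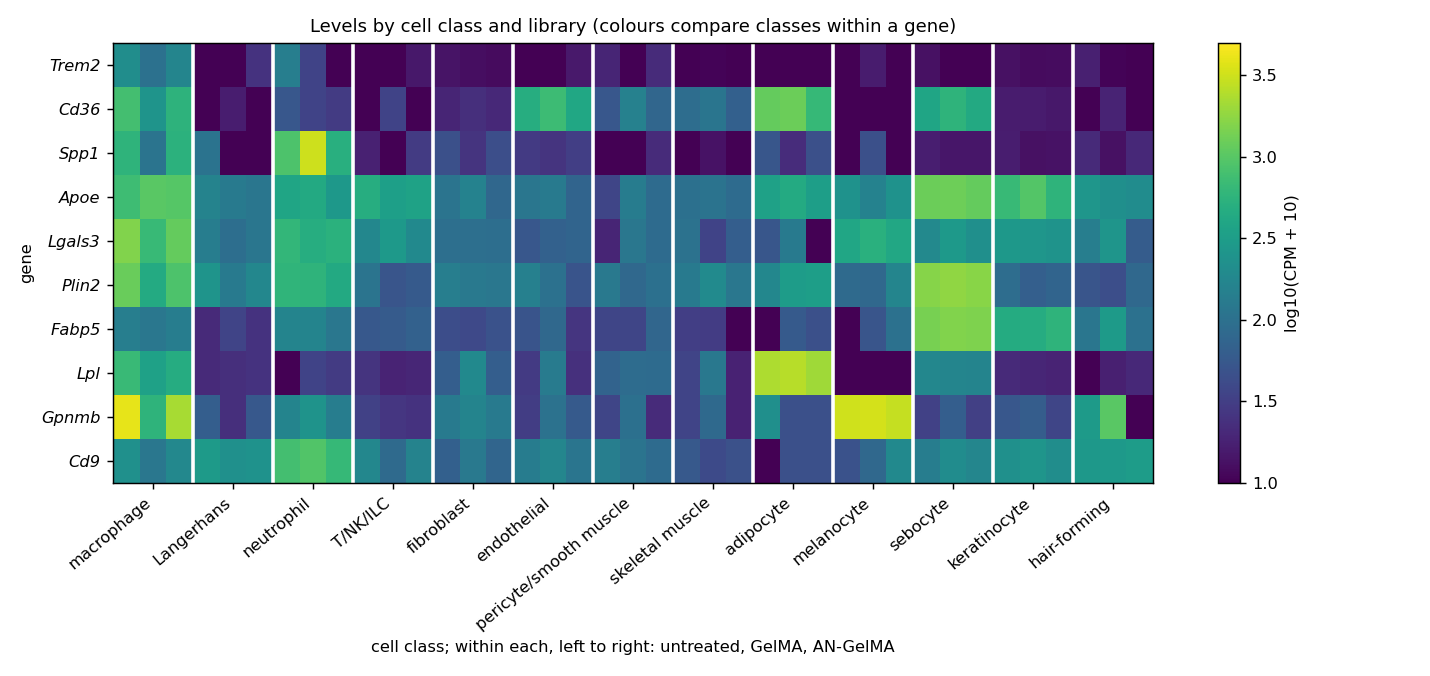
Levels of the 10 genes (rows) by cell class (blocks of 3 columns: untreated, GelMA, AN-GelMA), as log10(CPM + 10), with colour compared within a row. Trem2 is bright only in macrophages and, from 6 UMIs, in untreated neutrophils, while Plin2 and Fabp5 are brightest in sebocytes, Lpl and Cd36 in adipocytes, Cd9 in neutrophils and Gpnmb in macrophages and melanocytes.

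GelMA over untreated gave log2 ratios in macrophages of -2.83 for Gpnmb (-3.04 to -2.62), -2.50 for Spp1 (-3.05 to -2.01), -1.67 for Cd36, -1.44 for Plin2 and -1.21 for Lgals3. Trem2 (-1.10), Cd9 (-1.02) and Lpl (-0.98) were called lower too. Thus 8 of 10 were lower past a ratio of 1.5 and 0 higher, beside 10.9% of 5432 genes lower and 11.5% higher, and the median of the 10 was -1.15 against 0.03 for all genes. Apoe (0.49) and Fabp5 (-0.31) stayed within the limit. AN-GelMA over GelMA gave 2.43 for Spp1 (1.94 to 2.96), 2.00 for Gpnmb (1.79 to 2.21), 1.20 for Cd36, 0.98 for Plin2, 0.81 for Lgals3, 0.78 for Trem2 and 0.70 for Cd9. These 7 were higher and 0 lower, beside 10.4% of 6954 genes higher and 11.8% lower, with a median of 0.79 against -0.05. Lpl (0.46), Fabp5 (0.26) and Apoe (-0.05) were not called. With macrophages under 800 UMIs left out and the rest thinned to 800 UMIs, the count was 4 in place of 7. The median depth of GelMA macrophages was 745 UMIs, so most of them were left out of this count. Over untreated, AN-GelMA had 1 gene lower, Gpnmb at -0.83 (-0.90 to -0.76), and 0 higher, beside 4.82% of 7330 genes lower and 5.28% higher. Spp1 was at -0.08 and Apoe at 0.44. Each library enters 2 of the 3 comparisons, so a low GelMA value appears in both of its comparisons.

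**Figure D3:**
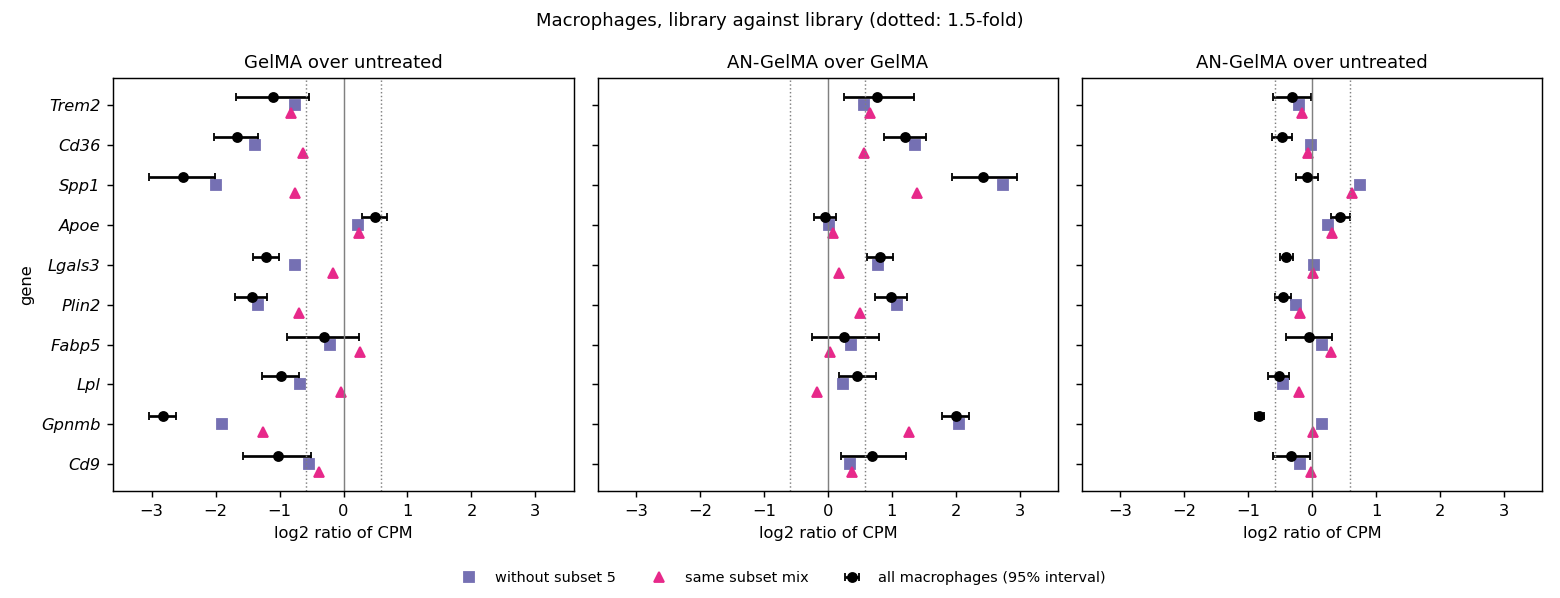
Log2 ratios of CPM in macrophages for the 3 comparisons (panels), with all macrophages in black with 95% intervals, all but subset 5 as squares, and all 7 subsets at 1 common mix as triangles. Dotted lines mark a ratio of 1.5: Gpnmb is at -2.83 and 2.00 in the panels with GelMA, and its triangle in the panel of AN-GelMA over untreated is at 0.01.

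Macrophages were divided further, again without the 10 genes, into 7 subsets. Subset 5, led by Igf2bp2, Mfge8, Wfs1, Mmp12 and Atp6v0d2, was the main carrier of the signature. Over all libraries it held Gpnmb at 11298 CPM, against 101 to 1509 CPM in the other subsets. Gpnmb in subset 5 was at 12061 CPM in untreated, 5313 CPM in GelMA and 11268 CPM in AN-GelMA cells. Subset 5 also had the highest pooled level of Spp1 (1999 CPM), Lgals3 (3346), Plin2 (2004), Cd36 (1658), Lpl (1581), Cd9 (478), Trem2 (295) and Fabp5 (288), that is, of 9 of the 10 genes. The pooled intervals of subsets 5 and 3 overlapped for Trem2 and Fabp5, and in GelMA Trem2 was at 112 CPM in subset 5 (3 UMIs) and 271 CPM in subset 3 (16 UMIs). The exception was Apoe, at 223 CPM lowest of the 7 subsets there and highest, at 1714 CPM, in subset 3. Subset 3, led by Slc40a1, the iron exporter, with Gdf15 and the haemoglobin gene Hba-a2, came next for Trem2 (275 CPM) and Fabp5 (228 CPM). Subset 1, led by Cxcl2, Nos2, Arg1 and Vegfa, came next for Spp1 (525 CPM), Lgals3 (1472), Cd36 (1015) and Cd9 (351). Subset 2, led by Cd209f and other lectins and rich in Cd163 and Mrc1, markers of resident dermal macrophages, had the lowest Spp1 (25.2 CPM), Gpnmb (101 CPM), Trem2 (59.5 CPM) and Lgals3 (359 CPM).
Subset 5 held less of several general macrophage markers than its neighbours: Adgre1 at 97 CPM and C1qa at 18.9 CPM, while Cd68, a lysosomal membrane protein, was at 676 CPM. The genes that formed the subsets can move with the signature, so these contrasts describe where it sits and are no test.

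**Figure D4:**
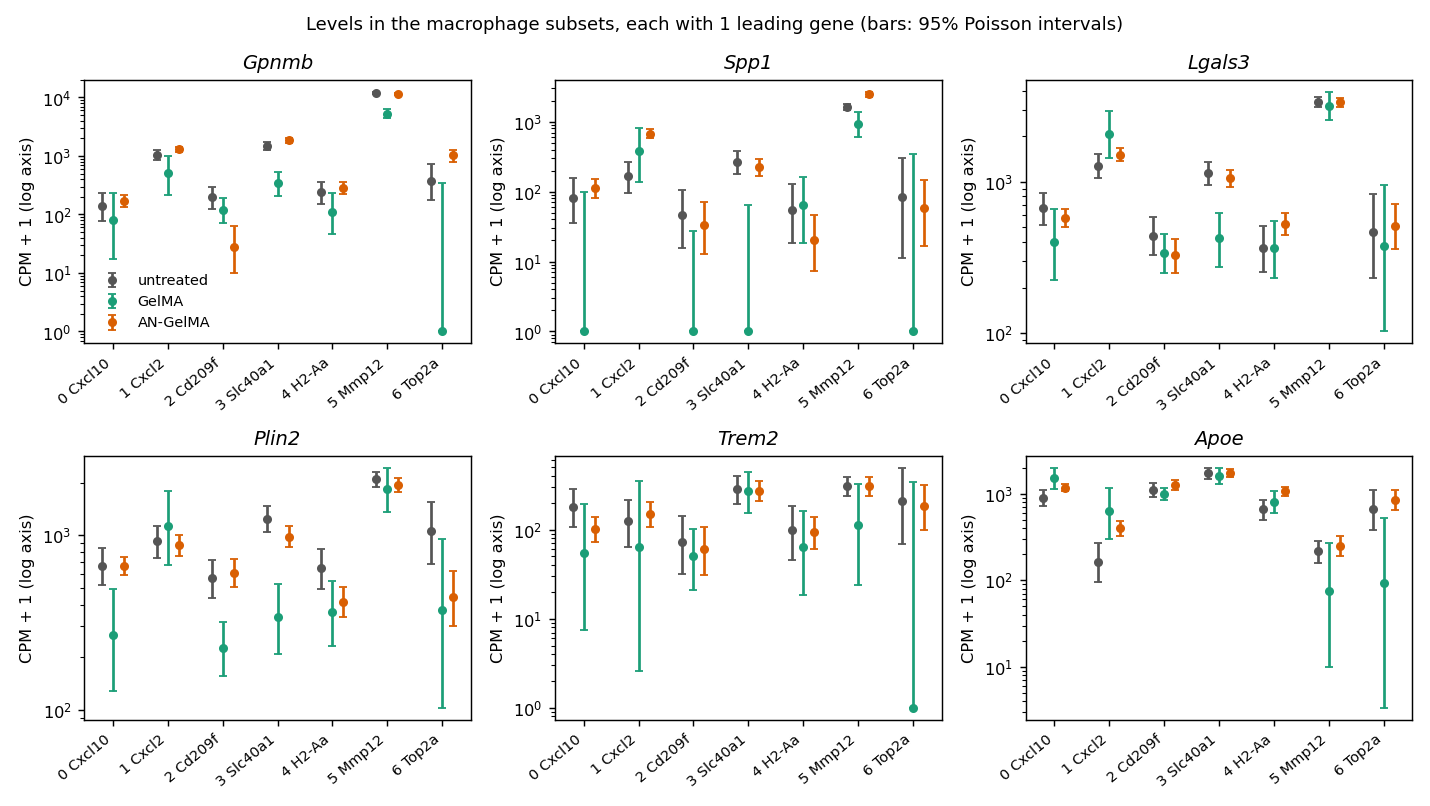
Level of 6 genes in the 7 macrophage subsets, each named by a leading gene, as CPM + 1 on a log axis with 95% Poisson intervals (grey untreated, green GelMA, orange AN-GelMA). Gpnmb, Spp1, Lgals3 and Plin2 peak in subset 5 (Mmp12) and Apoe is lowest there at 223 CPM pooled, while green points for Spp1 in subsets 0, 2, 3 and 6 rest on 0 UMIs.

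The libraries held these subsets in different shares. Subset 5 made up 20.6% of untreated macrophages (17.6 to 23.9), 5.56% of GelMA (3.51 to 8.29, 22 cells) and 8.45% of AN-GelMA (7.11 to 9.95). The Cd209f subset held 98 of 655, 154 of 396 and 179 of 1539 cells. With every library given the same mix of subsets, AN-GelMA over GelMA kept Spp1 at 1.39, Gpnmb at 1.27 and Trem2 at 0.66 past the limit, 3 higher and 0 lower beside 10.4% of 6954 genes higher and 11.7% lower, and the median of the 10 was 0.43. The mix gives weight to GelMA subsets 0, 1, 5 and 6, with 42, 17, 22 and 7 cells, and no interval was computed. GelMA Trem2 there rested on 2, 1, 3 and 0 UMIs. In subsets 2, 3 and 4, with at least 50 cells in each library, Trem2 was at 0.28 (-1.22 to 1.88), 0.01 (-0.81 to 0.91) and 0.56 (-0.98 to 2.54). These values were within the limit, but their intervals reached past it. They rested on 11 and 7, 59 and 16, and 24 and 4 UMIs in AN-GelMA and GelMA. Subsets 2 and 4 were under the minimum of 50 UMIs. For GelMA over untreated, 5 genes were lower and 0 higher at the same mix, beside 9.68% of 5432 genes lower and 9.52% higher, and the median was -0.51. For AN-GelMA over untreated 1 was higher and 0 lower (4.58% and 4.77% of 7330 genes), and Gpnmb moved from -0.83 to 0.01. Leaving out subset 5 gave 5 genes higher in AN-GelMA over GelMA (Spp1 2.73, Gpnmb 2.04) and 7 lower in GelMA over untreated (Spp1 -1.99, Gpnmb -1.90). Beside these, 10.7% of 6594 genes were higher and 11.7% lower in AN-GelMA over GelMA, and 9.03% of 4683 genes higher and 10.2% lower in GelMA over untreated. In AN-GelMA over untreated 1 gene was higher and 0 lower without subset 5 (4.81% and 5.04% of 6822 genes).

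Within single subsets, GelMA cells were fewest except in the Cd209f subset, where untreated cells were, and 3 subsets had at least 50 cells in each library. In the Slc40a1 subset, Gpnmb was at 1490 CPM in untreated (164 UMIs), 338 CPM in GelMA (20 UMIs) and 1839 CPM in AN-GelMA (398 UMIs). Plin2 there was at 1236, 338 and 980 CPM and Lgals3 at 1136, 423 and 1053 CPM, with GelMA lowest each time. Spp1 in this subset was 0 UMIs in GelMA against 48 in AN-GelMA, a log2 ratio of at least 2.13 at a floor of 3 UMIs, just under the minimum of 50 UMIs for a call. Trem2 (282, 271 and 273 CPM) and Apoe (1717, 1608 and 1742 CPM) were close across the libraries in the same cells. GelMA Trem2 there rested on 16 UMIs (155 to 440 CPM). In the Cd209f subset the order differed for Gpnmb, which was at 198 CPM in untreated, 120 CPM in GelMA and 27.2 CPM in AN-GelMA, from 22, 17 and 5 UMIs. Plin2 in these cells was again lowest in GelMA, at 566, 225 and 609 CPM. In the MHC class II subset, Lpl was at 550 CPM in untreated, 332 CPM in GelMA and 260 CPM in AN-GelMA. The Lpl intervals of GelMA (206 to 508) and AN-GelMA (201 to 330) overlapped. Cd36 there was at 280, 15.8 and 105 CPM, from 26, 1 and 27 UMIs, so its ratios with GelMA fell under the minimum of 50 UMIs.
Between AN-GelMA and untreated, 6 subsets had at least 50 cells in both libraries. In the Cxcl2 subset, Spp1 was at 673 CPM in AN-GelMA (171 UMIs) and 164 CPM in untreated (16 UMIs), a log2 ratio of 2.04 (1.30 to 2.88). In subset 5, Spp1 was at 2470 CPM in AN-GelMA and 1634 CPM in untreated, a log2 ratio of 0.60 (0.40 to 0.79), while Gpnmb (-0.10), Lgals3 (-0.01), Plin2 (-0.10) and Trem2 (-0.01) were near level. Spp1 was at 112 and 79.7 CPM in subset 0 (0.49, -0.62 to 1.79) and at 222 and 263 CPM in subset 3 (-0.25, -0.94 to 0.47), with both intervals spanning 0. It rested on 6 and 5 UMIs in subset 2 and on 5 and 5 in subset 4.

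With every cell thinned to 500 UMIs, Gpnmb was detected in 29.6% of untreated macrophages (26.1 to 33.2, exact binomial), 9.09% of GelMA (6.45 to 12.4) and 18.7% of AN-GelMA (16.7 to 20.7). Unthinned shares were 33.3%, 14.1% and 22.7% at median depths of 988, 745 and 878 UMIs. T, NK and innate lymphoid cells, which should lack Gpnmb, had thinned shares of 0%, 1.71% and 0%, at median depths of 743, 815 and 713 UMIs, where 0 of 100 and 0 of 193 cells allow up to 3.00% and 1.55% (3 counts of the total; the exact two-sided bounds are 3.62% and 1.89%). Spp1 was detected in 8.58%, 2.78% and 7.48% of macrophages, and Plin2 in 36.0%, 15.7% and 28.3%. Apoe went from 24.3% to 29.5% and 30.4%. Few cells carried much of the signature at this depth: 5 or more of the 10 genes were seen in 6.74% of untreated (44 cells), 1.01% of GelMA (4 cells) and 5.01% of AN-GelMA macrophages (77 cells).
Macrophages with a Gpnmb UMI were richer in most of the other genes. Spp1 was at 1285 CPM in untreated macrophages with a Gpnmb UMI and 148 CPM in those without, and the pairs were 778 and 38.9 CPM in GelMA and 1296 and 173 CPM in AN-GelMA. Lgals3 behaved alike, at 2819 against 613 CPM, 2667 against 439 CPM and 2077 against 630 CPM. For Apoe the pairs were 653 and 804 CPM, 1056 and 989 CPM, and 1129 and 1106 CPM, with every interval of the ratio spanning 0. UMIs were also uneven between cells: 26 of 655 untreated and 30 of 1539 AN-GelMA macrophages held 50% of their library's Gpnmb, so Poisson intervals are narrower than the spread over cells.

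**Figure D5:**
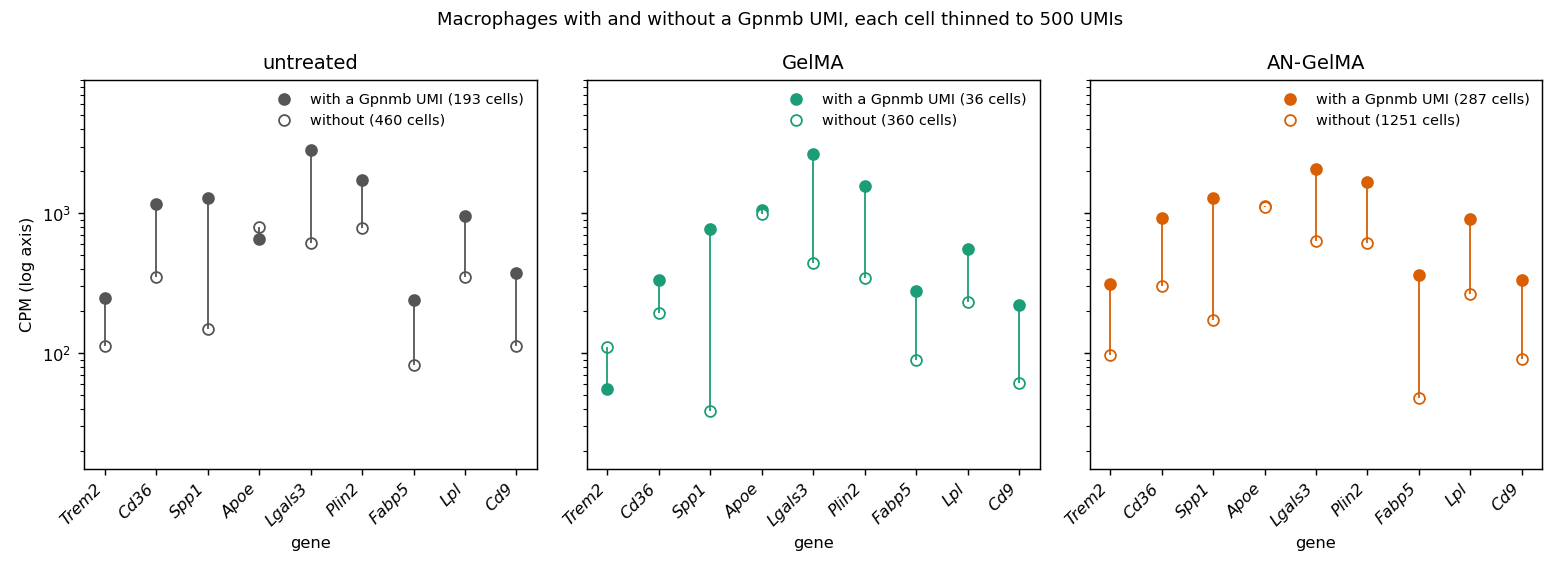
Level of the other 9 genes in macrophages with (filled) and without (open) a Gpnmb UMI, each cell thinned to 500 UMIs, as CPM on a log axis, 1 panel per library. Filled points are above open ones for every gene but Apoe in untreated and Trem2 in GelMA, the latter from 1 UMI in 36 cells.

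Outside macrophages, neutrophils of the GelMA library held the most Spp1 of any class of at least 50 cells, at 3089 CPM (374 UMIs in 93 cells), against 865 CPM in untreated (39 UMIs, 44 cells) and 493 CPM in AN-GelMA (50 UMIs, 103 cells). The log2 ratio of AN-GelMA over GelMA was -2.65 (-3.10 to -2.22), and without the cell highest in Spp1 in each library it was -2.62. Whether AN-GelMA neutrophils included apoptotic ones loaded in the gel was not tested. In GelMA 35 neutrophils had a Spp1 UMI, the top cell held 91 UMIs, and 3 cells held 50% of the total. Chosen after their values were seen, the 15 GelMA neutrophils with at least 5 Spp1 UMIs had S100a9, an abundant neutrophil gene, at 16722 CPM, against 4956 CPM in the other 78. S100a8 (11138 against 3163 CPM), Retnlg (478 against 285), Il1r2 (418 against 240), Trem1 (388 against 240) and Cxcr2 (179 against 57.1) were also higher in the 15. The remaining neutrophil markers were lower there. Csf3r was at 358 against 697 CPM, and Mmp8 and Ly6g were at 0 UMIs in the 15 and at 10 and 1 in the 78. Of macrophage genes, Adgre1 and C1qa were at 0 UMIs on both sides, Mrc1 at 0 against 9, Csf1r at 1 against 9 and Cd68 at 10 against 13 (299 and 148 CPM). Of the 5 members with enough UMIs in neutrophils, 2 were lower in AN-GelMA (Spp1 and Apoe) and 0 higher, beside 17.2% of 826 genes lower and 26.3% higher.

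Gpnmb was high in a hair cluster seen only in GelMA, 176 cells led by Dsc2, Krt84 and Krt75, keratins and a junction gene of the hair follicle. It stood at 11113 CPM (4228 UMIs, in 142 cells), and in a cluster led by Krt81 and Krt33a of the same library at 917 CPM. A cluster led by Krt35 had Gpnmb at 416 CPM in untreated, 501 CPM in GelMA and, in 51 cells, 0 UMIs in AN-GelMA. Over all hair-forming cells the levels were 284, 1013 and 0 CPM from 203, 2905 and 57 cells, and 332 CPM in GelMA without the Krt84 cluster, a log2 ratio over untreated of 0.23 (-0.10 to 0.58). Of 7 members with enough UMIs there, 3 were higher in GelMA over untreated (22.2% of 10017 genes), and 0 lower (17.9%). In AN-GelMA over GelMA 1 was higher, Plin2, and 3 lower (27.4% and 21.3% of 9983 genes), and in AN-GelMA over untreated 0 of 3 were higher and 1 lower, Gpnmb (11.7% and 15.6% of 2141 genes). The hair cycle phase of the sampled skin was not analysed here. Their markers summed to 159, 1042 and 62.6 CPM within macrophages, with 2, 0 and 4 of 11 at 0, and keratinocyte markers to 472, 1078 and 586 CPM. Neutrophil markers in macrophages summed to 201, 231 and 372 CPM, with Ly6g at 0 in all 3. Gpnmb in GelMA cells that should lack it was at 93.1 CPM in endothelium and 74.0 CPM in muscle, where 12 of 36 and 33 of 102 UMIs lay in 1 cell. With the background share described for Fabp5 taken off, Gpnmb in macrophages was 3900, 498 and 2183 CPM. Then 9 genes were lower in GelMA over untreated and 8 higher in AN-GelMA over GelMA, with Fabp5 added in both. The share taken off was largest in GelMA (14.6%), which lowers GelMA most for genes common in other cells. No share of all genes was computed for this setting, so these counts have none beside them.

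Sebocytes had 0 of 7 genes past the limit in AN-GelMA over GelMA (beside 11.5% of 4662 genes higher and 10.2% lower) and 0 of 7 in AN-GelMA over untreated (5.26% and 4.16%). In GelMA over untreated, Lgals3 alone was higher, at 0.62 (12.9% of 4101 genes higher, 13.3% lower).
Endothelial cells had 6 of 6 genes lower in AN-GelMA over GelMA (Gpnmb, Plin2, Cd36, Lpl, Apoe and Cd9), beside 11.1% of 4498 genes lower and 11.3% higher. In GelMA over untreated, Cd36 and Lpl were higher and Plin2 lower of 5 (10.1% and 10.9% of 4693 genes), and in AN-GelMA over untreated Plin2 and Apoe were lower of 4 and 0 higher (5.39% and 5.54% of 4567 genes). An endothelial cluster led by Cd300lg, Car4 and Gpihbp1, which anchors Lpl on capillaries, held 127 of its 135 cells in GelMA. Cd36 in that cluster of GelMA was at 1679 CPM and Lpl at 425 CPM. Without this cluster, endothelial Cd36 was at 395 CPM in AN-GelMA and 372 CPM in GelMA, a log2 ratio of 0.09 (-0.28 to 0.46), and GelMA over untreated was at -0.30 (-0.65 to 0.05) in place of 0.60. Of the 48 endothelial Lpl UMIs of GelMA, 42 lay in this cluster.
Fibroblasts held Lpl at 54.7 CPM in untreated, 179 CPM in GelMA and 54.1 CPM in AN-GelMA, with only GelMA apart. Cd9 was at 57.0, 113 and 66.4 CPM and Spp1 at 35.4, 15.6 and 34.8 CPM. GelMA was again apart for Cd9, while its Spp1 interval overlapped the untreated one. Of 8 members there, AN-GelMA over GelMA had Spp1 higher and Lpl, Apoe and Cd9 lower (9.19% and 15.3% of 9051 genes), and AN-GelMA over untreated had 0 either way (3.01% higher and 3.83% lower of 9227 genes).
Skeletal muscle held Lpl at 25.7, 110 and 8.25 CPM. Of 7 members, GelMA over untreated had Gpnmb, Plin2 and Lpl higher and Lgals3 and Cd9 lower (22.9% and 14.7% of 6335 genes). AN-GelMA over GelMA had Gpnmb, Plin2, Cd36 and Lpl lower of 6 and 0 higher (23.0% and 16.0% of 6354 genes), and AN-GelMA over untreated had 0 of 1 (7.81% higher and 6.61% lower of 2344 genes).
In keratinocytes, Apoe was at 652, 932 and 565 CPM. A cluster led by Sprr4, Cst6 and Klk10 held Apoe at 2683 CPM in GelMA (3621 UMIs, 658 cells), 239 CPM in untreated (22 UMIs, 58 cells) and 367 CPM in AN-GelMA (54 UMIs, 106 cells). In a cluster led by Col17a1 and Krt15, Apoe was at 1171, 932 and 1083 CPM. Of 9 members, 2 were lower in AN-GelMA over GelMA (16.3% of 11486 genes) and 0 higher (5.64%). In GelMA over untreated Spp1 was lower and 0 higher (5.74% and 13.2% of 11307 genes), and in AN-GelMA over untreated Spp1 and Gpnmb were lower and 0 higher (3.10% and 1.15% of 10727 genes), with Spp1 at 3.15 to 6.40 CPM.

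Gene lists around the 10 were read in macrophages against the same shares of all genes. These were 10.4% higher and 11.8% lower in AN-GelMA over GelMA, and 11.5% and 10.9% in GelMA over untreated. In AN-GelMA over untreated they were 5.28% and 4.82%. Of 12 further lipid-associated markers with enough UMIs, 7 were higher and 1 lower in AN-GelMA over GelMA (median 0.85), and 6 of 10 were lower in GelMA over untreated (median -0.78). Fth1, the ferritin heavy chain that stores iron, was at 1943 CPM in untreated, 842 CPM in GelMA and 1883 CPM in AN-GelMA. Capg, an actin-capping protein, was at 431, 175 and 378 CPM, and Arg1, arginase, at 576, 211 and 435 CPM. Itgax, which encodes CD11c, was lower in AN-GelMA, at 83.5, 87.3 and 43.2 CPM.
Of 12 transcriptional regulators, 5 were higher and 0 lower in AN-GelMA over GelMA, among them Cebpb (750.1, 290.0 and 884 CPM), Rxra (23.9, 14.1 and 53.2 CPM), Hif1a (126, 124 and 212 CPM) and Bhlhe40 (229, 95.7 and 160.3 CPM).
Of 17 lysosomal genes, 4 were higher and 0 lower in AN-GelMA over GelMA, and 7 lower in GelMA over untreated. The 4 were Lipa, the acid lipase, at 409, 149 and 267 CPM, the proteases Ctsd (296, 110 and 202 CPM) and Ctsl (485, 270.3 and 432 CPM), and the cholesterol carrier Npc2 (273, 197 and 311 CPM). Of these, Npc2 was within the limit in GelMA over untreated.
Of 8 droplet genes, 3 were higher and 2 lower in AN-GelMA over GelMA: Hilpda, an inhibitor of droplet lipolysis, was at 227, 30.97 and 150.3 CPM, Soat1, which esterifies cholesterol, at 310.1, 163 and 277 CPM, Fabp4 at 59.6, 78.8 and 39.5 CPM, and Dgat1, which makes triglyceride, at 26.5, 45.05 and 26.9 CPM.
Of 6 uptake and efflux genes, 1 was higher in AN-GelMA over GelMA (Lrp1, at 530.1, 284 and 482 CPM), while Msr1 (732, 701 and 666 CPM), Abcg1 (140.5, 144 and 161 CPM) and Scarb1 (47.7, 59.1 and 54.5 CPM) were within the limit. Of 14 partners and receptors, 1 was higher, Cd44, the receptor of Spp1 (419, 377 and 572 CPM), and 1 lower, Cd81 (58.3, 101 and 48.2 CPM), beside Syk (1296, 856 and 1267 CPM) and Itga9 (117, 146 and 113 CPM). In GelMA over untreated, 5 of 11 regulators, 3 of 6 droplet genes and 1 of 6 uptake and efflux genes were lower, and 0 higher. Of 13 partners and receptors, 3 were higher and 1 lower there. Over untreated, AN-GelMA had 1 higher and 2 lower of the 12 further markers, 2 higher of the 12 regulators and 3 lower of the 17 lysosomal genes. It also had 2 lower of the 8 droplet genes and 1 lower of 15 partners and receptors.

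Across 34 units of 1 class in 1 library, the genes most like each member by Pearson r of log2(CPM + 10) were as follows, as a description in which units share libraries and depth. Gpnmb was most like Mitf (0.82), the melanocyte and lysosome regulator, then Fnip2 (0.81) and Slc7a8 (0.79). Trem2 was most like Ms4a8a (0.93), Mmp12 (0.92) and Fcrlb (0.92), and Spp1 most like Fth1 (0.91), Cxcl2 (0.91) and Ccl6 (0.89). Lpl was most like Nr1h3 (0.89), the sterol-sensing LXR alpha, then Cd36 (0.76) and Prdx1 (0.72). Cd36 was most like Abca1 (0.81), Pparg (0.77) and Lpl (0.76). Lgals3 was most like the proton pump subunits Atp6v1e1 (0.81) and Atp6v1b2 (0.79), then Sgpl1 (0.77). Fabp5 was most like Acer1 (0.89), Cds1 (0.89) and Elovl4 (0.88), and Apoe most like Hyal1 (0.85), Cds1 (0.83) and Tank (0.83). Plin2 was most like Cd274 (0.80), Rbm47 (0.79) and Nampt (0.77), and Cd9 most like Pgs1 (0.83), Suco (0.79) and Tuba1c (0.79).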

How the data were processed

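Dissociated skin was profiled with the probe-based 10x GEM-X Flex v2 mouse assay after 24 h of fixation and 2 h of Liberase TH digestion, per the labels' protocols. The deposited matrices hold raw UMI counts per gene and cell. Their file headers name Cell Ranger 10.0.0 and the submitters' processing notes the build GRCm39 (mm39). The members and lists were chosen with earlier results of these data known.

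Cells under 400 UMIs or 250 genes, or over 10% in mitochondrial UMIs, were removed. Scrublet called 0 doublets in each library, so the 5% of cells with the highest scores were removed, which left 5721, 10687 and 9094 cells. Scanpy 1.11.5 scaled counts to 10000 per cell and clustered on 2000 variable genes without the 10 members (30 components, 15 neighbours, Leiden resolution 1). Clusters were cited by their leading genes, and classes were named from marker sets by a rule settled after the cluster tables were seen. Macrophages were clustered again at resolution 0.5. Summed counts were given as CPM. A gene entered a comparison with at least 50 UMIs over both libraries and at least 50 cells in each; the alternatives within single subsets counted all 10 members whatever their UMIs. A sum of 0 was taken as 3 UMIs for a bound, which supports a call in its own direction only. Likeness used log2(CPM + 10) over genes with at least 200 UMIs, and the 3 most alike were named. In the wider lists, up to 4 genes a list with the largest absolute log2 ratio in macrophages, AN-GelMA over GelMA, were named. The code was tested on simulated data. With 1 library a group no p-value was computed. Analyses ran in Python 3.11.15 with numpy 2.4.6 and scipy 1.17.1.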

Additional observations from a re-analysis of the deposited data

Results flagged for a closer look

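Several of the 10 genes differed between libraries in opposite directions in macrophages and in another class, by log2 ratios past 1.5-fold either way. In each case the difference between the classes was not tested, since each group has 1 library. For AN-GelMA over GelMA, Spp1 was at -2.65 in neutrophils and 2.43 in macrophages. Neutrophils loaded in the gel were not separated from those of the wound. Gpnmb was at 2.00 in macrophages, and at -0.94 in endothelial cells, -0.99 in keratinocytes, -3.17 in skeletal muscle and at most -5.04 in hair-forming cells, where AN-GelMA had 0 UMIs (at most -3.43 without the GelMA hair cluster led by Krt84). Since endothelium and muscle should lack Gpnmb, their values may hold background from other cells, which was not tested. Plin2 was at 0.98 in macrophages, -1.16 in endothelial cells and -0.78 in skeletal muscle, and Cd36 at 1.20, -0.83 and -0.82 in the same order, with 0.09 in endothelial cells without the cluster led by Gpihbp1. Lgals3 was at 0.81 in macrophages and -2.25 in hair-forming cells. Cd9 was at 0.70 in macrophages, -0.69 in endothelial cells and -0.77 in fibroblasts.

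For GelMA over untreated, Gpnmb was at -2.83 in macrophages, 1.83 in hair-forming cells and 1.53 in skeletal muscle. In hair-forming cells it was 0.23 without the Krt84 cluster. Endothelium and muscle should lack Gpnmb: 12 of 36 and 33 of 102 of their GelMA UMIs lay in 1 cell, and the part of free RNA was not tested. Lpl was at -0.98 in macrophages, 2.72 in endothelial cells (42 of 48 GelMA UMIs in the cluster led by Gpihbp1), 1.71 in fibroblasts and 2.09 in skeletal muscle. Plin2 was at -1.44 in macrophages and 0.67 in skeletal muscle, and Cd36 at -1.67 in macrophages and 0.60 in endothelial cells, or -0.30 without the Gpihbp1 cluster. Lgals3 was at -1.21 in macrophages, 0.86 in hair-forming cells and 0.62 in sebocytes. Cd9 was at -1.02 in macrophages and 0.99 in fibroblasts.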

How the results depend on the processing

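No paired analysis was possible because no group has a second library. Of 450 values of single genes under the alternatives, 287 stayed within the main interval and 149 lay outside it. The other 14 changed sign from a main value past 1.5-fold, and sign changes of smaller main values were not counted apart. Where a value moved, the cause was not tested. With cells under 800 UMIs left out and the rest thinned to 800 UMIs, 4 genes were higher in AN-GelMA over GelMA. The GelMA over untreated median was then -0.74. With classes assigned cell by cell these medians were 1.21 and -1.71, and Cd9 in AN-GelMA over GelMA was -0.28. With each cell weighted equally, 2 genes were lower in AN-GelMA over untreated. At the same subset mix, which includes GelMA subsets under 50 cells, 3 were higher in AN-GelMA over GelMA, and 5 lower in GelMA over untreated (median -0.51). AN-GelMA over untreated then had 1 higher and 0 lower (median -0.0016) with Gpnmb at 0.0089.

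Within single subsets, all 10 genes were counted whatever their UMIs. The shares of all genes need 50 UMIs, so none stands beside these counts. AN-GelMA over GelMA had 3 higher and 2 lower in subset 2 (median 0.19), with Gpnmb at -2.14, Lgals3 at -0.052 and Cd9 at -1.11. It had 5 higher and 0 lower in subset 3, and 2 higher and 1 lower in subset 4 (median 0.30), with Spp1 at -1.71 from 5 and 4 UMIs. GelMA over untreated had 4, 6 and 7 lower in subsets 2, 3 and 4, and 0 higher. Its median in subset 2 was -0.56, with Cd9 at 0.23, and in subset 3 Cd9 was 0.049. In subset 4 the median of this comparison was -0.70, with Spp1 at 0.23. AN-GelMA over untreated had 1 higher and 1 lower (Trem2) in subset 0 (median 0.26, Gpnmb 0.28), 4 higher and 0 lower in subset 1 (median 0.36, Gpnmb 0.30), and 2 lower in subset 2. It had 1 higher and 2 lower in subset 3 (median -0.078, Gpnmb 0.30), 1 higher and 5 lower in subset 4 (median -0.61, Gpnmb 0.26), and 1 higher and 0 lower in subset 5 (median 0.097). Without subset 5, an alternative chosen after seeing the data, the GelMA over untreated median was -0.76, and AN-GelMA over untreated had 1 higher and 0 lower (median 0.0021, Gpnmb 0.15).

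With the minimum of 50 UMIs kept, AN-GelMA over GelMA had 2 higher and 0 lower of 4 in subset 2, 4 and 0 of 8 in subset 3 and 1 and 0 of 5 in subset 4, beside at most 19.3% of genes higher and 9.31% lower. GelMA over untreated had 1 lower of 3, 5 of 6 and 2 of 4 in these subsets, and 0 higher, beside up to 17.9% lower. AN-GelMA over untreated had 1 higher and 1 lower of 8 in subset 0, 3 and 0 of 9 in subset 1, 0 and 0 of 4 in subset 2, 1 and 2 of 9 in subset 3, 1 and 3 of 6 in subset 4 and 1 and 0 of 10 in subset 5. Beside these, in subsets 0 to 5 in order, 12.1%, 12.1%, 8.98%, 10.9%, 11.7% and 6.22% of genes were higher. In the same order, 7.04%, 6.77%, 6.77%, 6.44%, 9.33% and 5.84% were lower. The opposite Gpnmb, Cd9 and Spp1 calls in subsets 2 and 4 for AN-GelMA over GelMA rest on genes under this minimum.

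GelMA macrophages were the fewest and shallowest, so several subset values rest on under 20 UMIs.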
